A study of Homo sapiens with 6 samples.

Results

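The proteasome genes and ubiquitin-conjugating (E2) enzyme genes described here were taken by name: every gene whose symbol begins with PSMA to PSMG and a digit, or with UBE2, with 1 E2 gene left out by the rule. The authors' deposited table held 52 such genes among its 7150. They fall into 15 genes of the core particle, 14 of the regulatory particle, 6 activators and core assembly factors, and 17 E2 enzymes. RNA came from MDA-MB-231, a line of human breast cancer cells of the triple-negative type, labelled WT and grown in serum-containing DMEM. There were 3 libraries from cells given 0.5 µM shikonin, a plant naphthoquinone, for 24 h, and 3 from control cells labelled as having no treatment. The dose is read as micromolar although the labels write the unit with a lower-case m. The sources used here name no vehicle for the control cells.

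The table is a single comparison with 0 columns of values per sample, so neither the values of single libraries nor their depth can be shown. Only genes with more than a 1.5-fold difference and an adjusted p under 0.05 by the authors' DESeq2 test are in it. An unlisted gene therefore missed a threshold or was left untested. The header does not name the numerator of the fold change, so genes that the authors marked "up", which have positive log2 values, are taken as higher in shikonin. Group levels below are implied means, solved from the authors' mean normalized count and fold change, and are not per-sample measurements. No label states if a group's 3 libraries were grown as independent cultures, so the p-values measure the spread between these libraries, which may be technical. Of 5 markers of the line, 3 (VIM, KRT18 and CAV1) were listed, all as higher. Over all genes, 50.2% of those tested were listed and 50.8% of those listed were higher. Listing marks a change and not expression, so the count is no check of the line. ESR1 and PGR, the hormone receptor genes that define the triple-negative type by their absence, were not listed, while the receptor gene ERBB2 was 1.99-fold lower, at 1090 normalized counts in shikonin and 2174 in control by the authors' deposited table.

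The proteasome degrades proteins that carry ubiquitin chains. Its core particle is a barrel of alpha and beta rings with the proteolytic sites on beta subunits inside. A regulatory particle caps the barrel: its base holds a ring of ATPases that unfold substrates, and its lid removes ubiquitin. E2 enzymes stand upstream. They receive ubiquitin, or a related modifier such as NEDD8, SUMO or ISG15, from an E1 enzyme and pass it on with the help of a ligase. When proteasome activity drops, cells are known to raise proteasome subunit genes together, through the transcription factor NRF1 (gene NFE2L1), which binds antioxidant response elements in their promoters.

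Matches to the core of that element, TGACNNNGC, are shown first because that element is known from the promoters of proteasome genes. RefSeq promoter windows (GRCh38.p14, 250 bases before to 50 after each annotated start) were matched by symbol for 42 of the 52 members. Those not matched included PSMA7, PSMB1, PSMB6, PSMB7, PSMC1P1, PSMD4, PSMG3, UBE2B and UBE2Q2L. The sequence TGACNNNGC was found on either strand in 11 of 28 proteasome members (39.3%) and in 0 of 14 E2 members. Among all 27305 genes with RefSeq windows, 16.1% held it. The share was 21.0% of the 2747 genes with a window that were listed as higher, and 18.8% of the 2820 listed as lower. The windows of all 5 matched activator and assembly genes held it, against 3 of 11 core and 3 of 12 regulatory genes. The 12 sites are given 5′ to 3′ on the strand named, with the match in capitals, and none overlapped a match to TGAGNNNGC or CCAAT.

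PSMA4, chr15:78540650-78540678, plus strand: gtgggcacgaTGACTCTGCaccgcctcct
PSMB3, chr17:38752627-38752655, plus strand: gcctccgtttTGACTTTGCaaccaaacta
PSMB9, chr6:32854034-32854062, minus strand: ccgagacaagTGACGAGGCagccccgccc
PSMC4, chr19:39971182-39971210, minus strand: tcctccatagTGACCAAGCcggcctctgt
PSMC5, chr17:63827654-63827682, minus strand: agggcggcgcTGACACAGCagatccggtc
PSMD9, chr12:121888631-121888659, minus strand: gcgcctgtggTGACCCGGCaggagtagcg
PSMD9, chr12:121888678-121888706, plus strand: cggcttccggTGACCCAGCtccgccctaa
PSME1, chr14:24136098-24136126, plus strand: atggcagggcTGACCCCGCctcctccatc
PSME2, chr14:24146767-24146795, minus strand: ccctggactgTGACCCAGCcagcaccgcc
PSME4, chr2:53971009-53971037, plus strand: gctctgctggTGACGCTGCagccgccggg
PSMG1, chr21:39183616-39183644, minus strand: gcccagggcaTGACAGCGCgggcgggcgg
PSMG2, chr18:12658689-12658717, plus strand: cagtttcccgTGACCCCGCggccgctctg

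The sites lie from 179 bases before the annotated start (PSMG1) to 31 after it (PSMC4). The related core TGAGNNNGC was present in 10 of the 28 proteasome members (35.7%) and 4 of 14 E2 members (28.6%). Of all genes with windows 21.6% held it, and of the listed genes with windows 26.2% (24.9% of the higher and 27.4% of the lower). A CCAAT box was found in 15 of the 28 (53.6%) and in 5 of 14 E2 members (35.7%). The shares for that box were 39.7% of all genes with windows and 43.65% of the listed ones (46.3% of the higher and 41.1% of the lower). A heat shock element, written as a run of 3 alternating GAA and TTC blocks with any 2 bases between blocks, was found in 0 of the 42 members and in 0.608% of all genes. These are matches of letters in 1 window per annotated start. PSME4, which holds a TGACNNNGC match, was lower in shikonin, while its 10 companions with a match were higher.

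Every listed gene of the core particle was higher in shikonin. All 7 ubiquitously used alpha subunit genes, PSMA1 to PSMA7, and 6 of the 7 constitutive beta subunit genes were listed in the authors' deposited table, with folds of 1.59 to 2.78. The immunoproteasome subunit genes PSMB9 and PSMB10 had the largest folds of the core. The 15 core genes thus stood 15 higher and 0 lower in the authors' deposited table, where 50.8% of all listed genes were higher. At least 2-fold higher were 12 of the 15, beside 32.7% of all listed genes. Against listed protein-coding genes of like transcript length, 6 of the 15 stood above the median fold change. Normalized counts of such bulk libraries are relative levels, so they show neither cell number nor the amount of RNA per cell.

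PSMA6, an alpha ring subunit, had implied means of 8041 normalized counts in shikonin and 2892 in control in the authors' deposited table. This is a 2.78-fold difference (95% interval 2.29 to 3.37), with an adjusted p of 5.09e-24 by the authors' DESeq2 test, the lowest of all members. The gene has 7 exons on chromosome 14 (35278633 to 35317493, GRCh38, GENCODE 29). It shares 919 exonic bases on the same strand with AL121594.1, a protein-coding gene of the annotation that was listed as lower (log2 fold change -7.71 ± 1.32, standard error) at a mean of 21.7 normalized counts in the authors' deposited table. Reads of the shared exons cannot be assigned with certainty, though the mean of PSMA6, 5467 normalized counts, was far above that of the overlapping gene.

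The other alpha subunits formed a graded series. PSMA2 was 2.46-fold, PSMA3 2.15-fold, PSMA7 2.01-fold, PSMA4 1.86-fold, PSMA5 1.81-fold and PSMA1 1.59-fold higher in the authors' deposited table. PSMA7 was the most abundant core message by mean normalized count (chromosome 20, 62136735 to 62143440), with implied means of 10771 in shikonin and 5365 in control (interval of the fold 1.63 to 2.48, adjusted p = 4.11e-10 by DESeq2, in the authors' deposited table). PSMA1 had the smallest fold, with an interval of 1.33 to 1.90 that does not meet that of PSMA6. Neighbours in this order had overlapping intervals.

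The 6 listed constitutive beta ring genes had closer folds than the listed alpha ring genes, 2.21-fold to 2.63-fold. PSMB6, PSMB7 and PSMB5 carry the caspase-like, trypsin-like and chymotrypsin-like active sites. PSMB6 (chromosome 17, 4796144 to 4798503) had implied means of 3675 normalized counts in shikonin and 1395 in control, 2.63-fold (2.07 to 3.36, adjusted p = 4.72e-14 by DESeq2) in the authors' deposited table. PSMB7 and PSMB5 were 2.27-fold and 2.21-fold higher in the authors' deposited table. The subunits without an active site, PSMB1, PSMB4 and PSMB3, were 2.45-fold, 2.40-fold and 2.39-fold higher in the authors' deposited table. All 6 intervals overlapped one another. PSMB2, the remaining constitutive beta subunit gene, was not listed, so the spread of folds over the whole beta ring is not known.

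**Figure D1:**
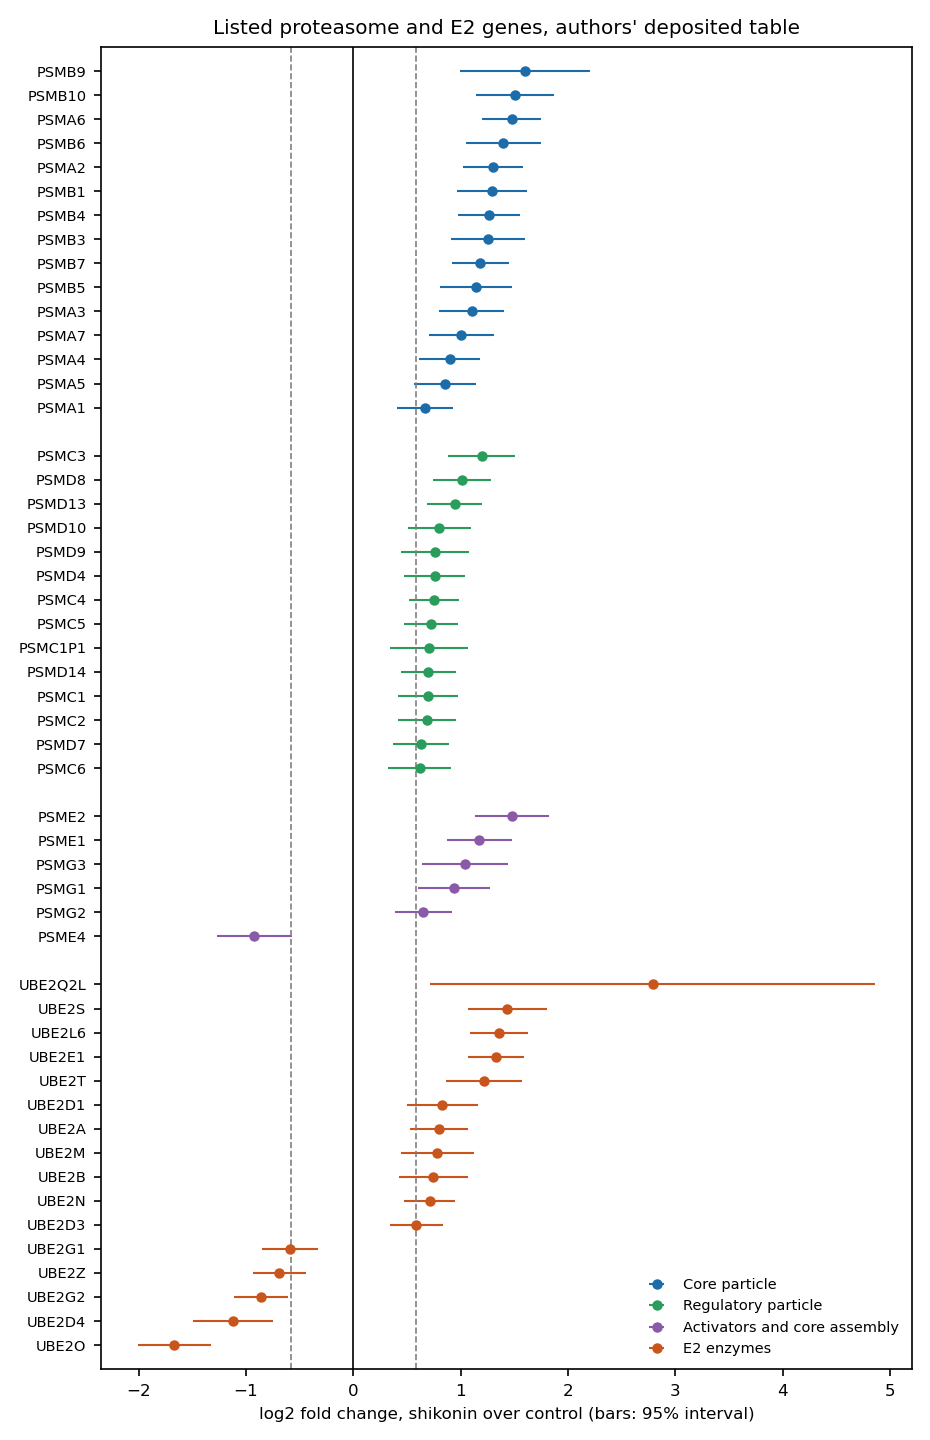
Log2 fold change (shikonin over control, horizontal axis) of 51 of the 52 listed members from the authors' deposited table, with 95% intervals from the listed standard error, in 4 groups running down the page. Dashed lines mark the authors' 1.5-fold threshold. The 15 core and 14 regulatory genes lie right of 0, and the 6 members left of 0 are PSME4 and 5 E2 genes.

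In the immunoproteasome, induced by interferon and present in immune cells, PSMB9 replaces PSMB6, PSMB10 replaces PSMB7 and PSMB8 replaces PSMB5. PSMB9 (chromosome 6, 32844136 to 32859585) was 3.03-fold higher (1.99 to 4.61, adjusted p = 8.46e-07 by DESeq2), but at low levels, 127 normalized counts in shikonin and 42.0 in control, as implied by the authors' deposited table. PSMB10 (chromosome 16, 67934502 to 67937087) was 2.84-fold higher (2.21 to 3.66, adjusted p = 4.74e-15 by DESeq2), at 1170 and 412 normalized counts in shikonin and control by the authors' deposited table. Per length of mature transcript, the implied level of PSMB10 was 12.9% of that of PSMB7 in shikonin and 10.3% in control. That of PSMB9 was 3.77% of PSMB6 in shikonin and 3.28% in control. Each replacement subunit and its constitutive counterpart had overlapping fold intervals. PSMB8 was not listed, nor were PSMA8 and PSMB11, the testis and thymus forms. PSMB9 exons overlap those of PSMB8 and of PSMB8-AS1, and the sources used here do not say whether the libraries were stranded. Of 9 genes of the interferon response and antigen presentation, 5 were higher and 2 lower in the authors' deposited table. Over all genes, 50.2% of those tested were listed and 50.8% of those listed were higher. Whether an interferon response took part was not tested. ISG15, B2M and TAP1 were 2.82-fold, 2.29-fold and 1.65-fold higher in the authors' deposited table, while the interferon-induced transcription factor gene IRF1 was 1.59-fold lower.

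Regulatory particle genes were also higher in every listed case, by smaller folds than most of the core. The 14 rows stood 14 higher and 0 lower in the authors' deposited table, where 50.8% of all listed genes were higher. Their median log2 fold change was 0.74, against 1.26 for the core genes, in the authors' deposited table. The median of all listed genes, 0.60, lies at the listing threshold, since no gene under 1.5-fold is listed. Of the 14, PSMC3 and PSMD8 were at least 2-fold higher, beside 32.7% of all listed genes. One row, PSMC1P1, is a processed pseudogene of PSMC1 on chromosome 3, which leaves 13 protein-coding genes. Of these 13, 4 stood above the median fold change of listed protein-coding genes of like transcript length. All 6 ATPase genes of the base were listed. PSMC3 (chromosome 11, 47418769 to 47426473) had the largest fold among them, with implied means of 6693 normalized counts in shikonin and 2924 in control and a fold of 2.29 (1.85 to 2.84, adjusted p = 4.21e-13 by DESeq2) in the authors' deposited table. The other ATPases, PSMC1, PSMC2, PSMC4, PSMC5 and PSMC6, had folds of 1.53 to 1.68 by the authors' deposited table. PSMC1 and PSMC1P1 had log2 fold changes of the same size, 0.70, in the authors' deposited table. The annotation holds 13 pseudogenes named after PSMC1, so reads may be shared among them and the values of both rows are uncertain.

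Of 8 lid genes that the name rule takes, 4 were listed, all as higher. Over all genes, 50.2% of those tested were listed, so this count is no result about the lid. PSMD8 (chromosome 19, 38374536 to 38383824), a small lid subunit and the most abundant regulatory message by mean normalized count, had implied means of 7199 normalized counts in shikonin and 3569 in control, 2.02-fold (1.68 to 2.43, adjusted p = 9.4e-13 by DESeq2) in the authors' deposited table. PSMD13 (chromosome 11, 236546 to 252984), also of the lid, was 1.92-fold higher (1.61 to 2.30, adjusted p = 2.5e-12 by DESeq2), at 5213 and 2708 normalized counts in shikonin and control by the authors' deposited table. PSMD14, the deubiquitinating subunit, and its partner PSMD7 were 1.62-fold and 1.55-fold higher in the authors' deposited table. PSMD3, PSMD6, PSMD11 and PSMD12 were not listed. In the base, the ubiquitin receptor gene PSMD4 was 1.69-fold higher in the authors' deposited table, while the scaffold genes PSMD1 and PSMD2 were not listed. The assembly chaperones PSMD10, also known as gankyrin, and PSMD9 were 1.74-fold and 1.69-fold higher in the authors' deposited table. For PSMD10 (chromosome X, 108084207 to 108091618) the implied means were 1741 normalized counts in shikonin and 998 in control (interval 1.42 to 2.14, adjusted p = 3.5e-07 by DESeq2, in the authors' deposited table). PSMD5, the remaining chaperone, was not listed.

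Among the proteasome activators, genes of the ring-shaped cap moved opposite to the large single-chain one. PSME1 and PSME2, whose products form the interferon-inducible cap and which lie within the same stretch of chromosome 14, had folds of 2.26 (1.83 to 2.79, adjusted p = 2.52e-13 by DESeq2) and 2.78 (2.19 to 3.53, adjusted p = 4.64e-16 by DESeq2) by the authors' deposited table. PSME1 had implied means of 4623 normalized counts in shikonin and 2048 in control, and PSME2 of 3896 in shikonin and 1400 in control, solved from the authors' deposited table. PSME4, which encodes a nuclear activator from 47 exons on chromosome 2 (53864067 to 53970840), was 1.89-fold lower (1.48 to 2.42, adjusted p = 1.01e-06 by DESeq2), at 1399 normalized counts in shikonin and 2650 in control by the authors' deposited table. It was the only listed proteasome member that was lower. PSME3 and the inhibitor gene PSMF1 were not listed. The assembly chaperones of the alpha ring, PSMG3, PSMG1 and PSMG2, were 2.06-fold, 1.91-fold and 1.57-fold higher in the authors' deposited table, and PSMG4 was not listed.

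**Figure D2:**
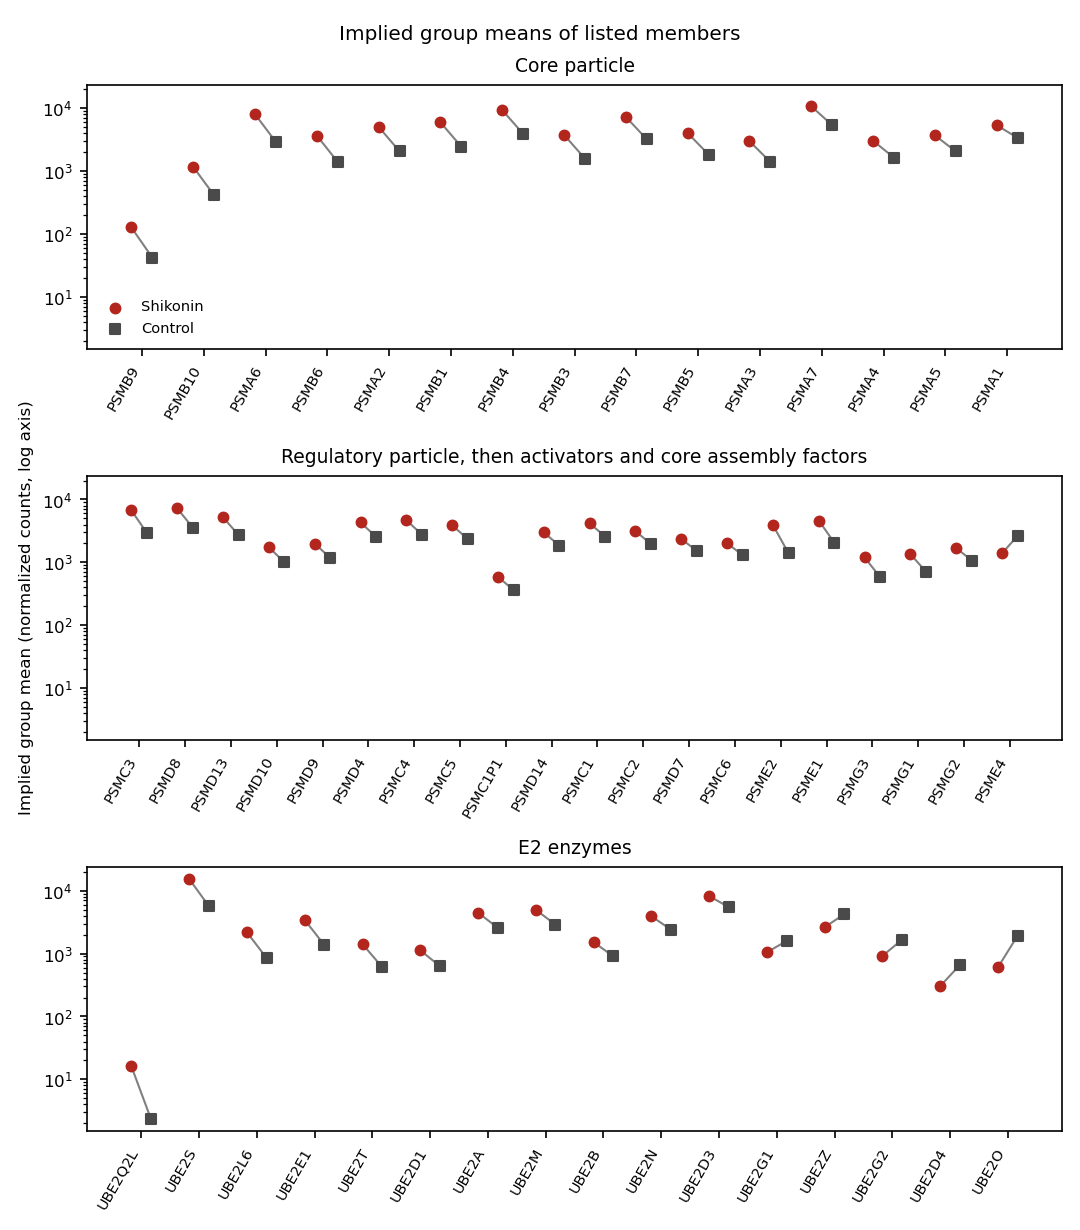
Implied group means in normalized counts (log axis) of 51 of the 52 listed members, shikonin as circles left of control as squares, joined by a line, for core, regulatory with activator and assembly, and E2 genes from top to bottom. Levels are not divided by length, so only the 2 points of a gene can be compared. The lines fall from shikonin to control for all but PSME4 and the 5 E2 genes at the right of the bottom panel.

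The E2 enzymes did not share a direction: 12 were higher and 5 lower in the authors' deposited table, where 50.8% of listed genes were higher and 49.2% lower. Among the higher ones, the cell cycle and repair enzymes UBE2S and UBE2T, the ISG15 enzyme UBE2L6, UBE2E1 and the scarce UBE2Q2L were more than 2-fold higher. UBE2S, which extends ubiquitin chains for the anaphase-promoting complex, had the highest mean of the class, with 15376 normalized counts in shikonin and 5690 in control as implied by the authors' deposited table. The gene is on chromosome 19 (55399745 to 55407777) and its fold was 2.70 (2.10 to 3.48, adjusted p = 1.56e-13 by DESeq2). UBE2L6 (chromosome 11, 57551656 to 57568284) had implied means of 2178 normalized counts in shikonin and 849 in control, 2.57-fold (2.12 to 3.10, adjusted p = 3.61e-21 by DESeq2) in the authors' deposited table. UBE2E1 was 2.51-fold higher, and UBE2T, the E2 of the Fanconi anaemia repair pathway, was 2.32-fold higher in the authors' deposited table.

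Of the other higher E2 genes, all but UBE2Q2L were less than 2-fold higher. UBE2A and UBE2B, the human RAD6 homologues, were 1.74-fold and 1.68-fold higher in the authors' deposited table. UBE2M, which loads NEDD8 on cullins, was 1.72-fold higher in the authors' deposited table. UBE2N, which builds signalling chains with UBE2V partners, was 1.64-fold higher in the authors' deposited table, and its partners UBE2V1 and UBE2V2 were not listed. Its exons overlap 2474 bases of NUDT4 on the opposite strand, a gene listed as lower (log2 fold change -0.59 in the authors' deposited table). The last of the 12, UBE2Q2L (chromosome 15, 84172490 to 84182234), had the largest fold of all members, 6.92, but at implied means of 16.1 normalized counts in shikonin and 2.32 in control by the authors' deposited table. Its interval, 1.65 to 29.1 (adjusted p = 0.0152 by DESeq2), was the widest of the members, and as a copy related to UBE2Q2, which was not listed, its reads are uncertain.

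Of the E2 genes that were lower, UBE2O, a large enzyme that combines E2 and ligase functions and marks unassembled proteins, differed most. It had implied means of 609 normalized counts in shikonin and 1935 in control, 3.18-fold lower (2.51 to 4.02, adjusted p = 9.73e-21 by DESeq2) in the authors' deposited table. UBE2O has 18 exons on chromosome 17 (76389451 to 76453206). UBE2D4 (chromosome 7, 43926438 to 43956136) was 2.18-fold lower (1.68 to 2.82, adjusted p = 1.92e-08 by DESeq2), with 304 normalized counts in shikonin and 662 in control by the authors' deposited table. Its family, broad-acting partners of many ligases, was divided: UBE2D1 and UBE2D3 were higher, with log2 fold changes of 0.83 and 0.59 by the authors' deposited table, and UBE2D2 was not listed. The interval of UBE2D4 does not meet that of UBE2D1. UBE2G2 (chromosome 21, 44768580 to 44802019), which serves degradation of proteins from the endoplasmic reticulum, was 1.82-fold lower (1.52 to 2.17, adjusted p = 2.09e-10 by DESeq2), at 920 and 1671 normalized counts in shikonin and control by the authors' deposited table. UBE2G1 (chromosome 17, 4269259 to 4366628), a partner of cullin ligases, was 1.51-fold lower (1.26 to 1.80, adjusted p = 2.05e-05 by DESeq2), at 1052 and 1584 normalized counts in shikonin and control by the authors' deposited table. The other E2 genes of the endoplasmic reticulum, UBE2J1 and UBE2J2, were not listed. UBE2Z (chromosome 17, 48908369 to 48929056) was 1.61-fold lower (1.35 to 1.92, adjusted p = 2.84e-07 by DESeq2), at 2635 and 4247 normalized counts in shikonin and control by the authors' deposited table. UBE2Z receives ubiquitin from the E1 enzyme UBA6, whose own gene had a 2.02-fold lower level (1.60 to 2.54) by the authors' deposited table. BIRC6, a giant E2 also charged by UBA6, was lower by 5.38-fold (4.08 to 7.08) by the authors' deposited table. These genes are long, 9564 nt for UBA6 and 15703 nt for BIRC6.

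Counted against the annotation, 51 of 85 protein-coding genes that the rule can name in GENCODE 29 (60%) were listed, beside 50.2% of the roughly 14253 genes that the authors' adjusted p-values imply were tested. The denominators differ, since annotated genes include some that these cells may not express. By class, 15 of 19 core, 13 of 20 regulatory, 6 of 9 activator and assembly, and 17 of 36 E2 genes were listed. PSMC3IP, a recombination factor that the name rule also matches, was not listed. Unlisted regulatory genes had a median mature length of 3443 nt, against 1591 nt for the 13 listed ones. For the core the medians were 1957 nt for the 4 unlisted and 980 nt for the 15 listed genes.

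Length moved with direction and size across the listed protein-coding genes, and the members followed it. Unlisted genes could not be included. Across 51 protein-coding members, which are not independent and share the same 6 libraries, Spearman's rho between mature transcript length and log2 fold change was -0.69, and across the 6920 listed protein-coding genes it was -0.70. Among listed genes of the shortest decile of length (up to 1028 nt), 97.0% were higher with a median log2 fold change of 1.48, and in the next 94.8% were higher with a median of 1.12, by the authors' deposited table. Within its own decile of length, a core gene stood at a median percentile of 43.9 of fold change, with 6 of 15 above the decile's median. For the 13 protein-coding regulatory genes the median percentile was 31.9, with 4 above. Most core and regulatory genes thus lay below the median fold of listed genes of like length, and the part of length in their rise was not tested. The lower E2 genes had mature lengths of 3122 to 5436 nt, a range in which 23.8% of listed genes were higher, and PSME4 has 7099 nt. Within their deciles the 17 E2 genes had a median percentile of 35.0, with 7 above the decile's median. For the 5 lower ones, which are picked by direction, it was 27.2, with 1 above. PSME4 stood at percentile 73.4. UBE2N (5186 nt), PSMC1 (4448 nt) and PSMA4 (4411 nt) were higher despite their annotated lengths, at percentiles 91.0, 83.7 and 87.1 of their deciles. The length of the transcript these cells use for each gene is not known from the table.

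**Figure D3:**
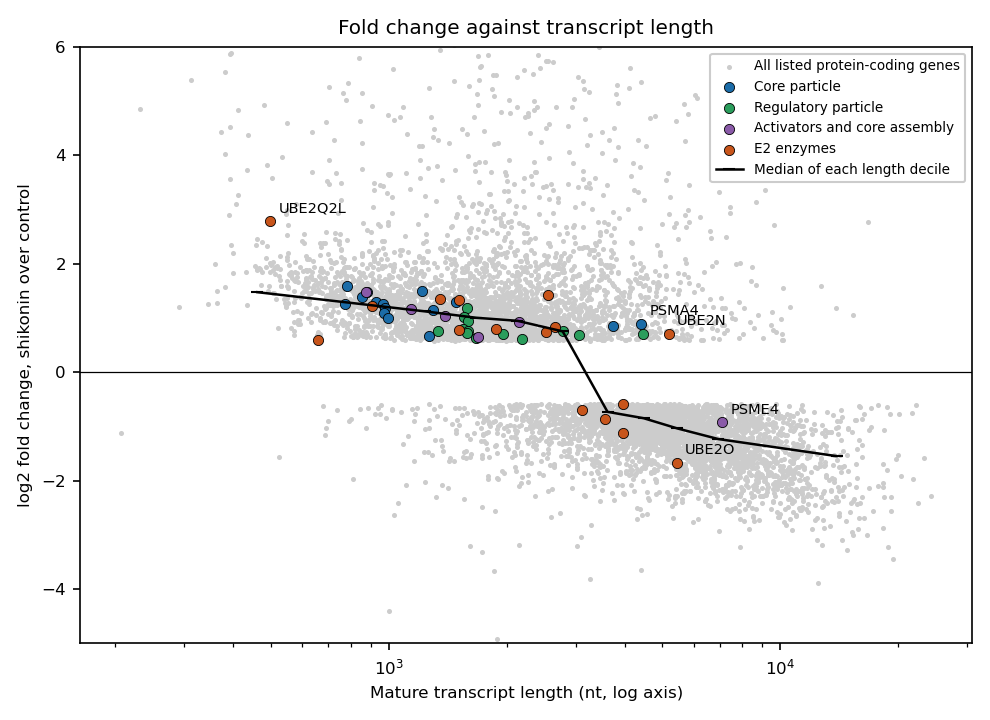
Log2 fold change (shikonin over control) against mature transcript length in nt (log axis) for listed protein-coding genes in grey and 50 protein-coding members in colour, with the median of each length decile as a line. The vertical axis runs from -5 to 6 and leaves 56 genes outside. Of the 28 protein-coding core and regulatory genes, 10 lie above the median of their decile, and the 6 lower members have 3122 nt or more.

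The scaling of the libraries touches the regulatory particle most. With the implied totals of all listed genes set equal, which lowers every log2 fold change by 0.39, 12 of 15 core genes were still past 1.5-fold, against 2 of 14 regulatory genes (PSMC3 and PSMD8). Under the same shift 5 E2 genes were higher and 5 lower, and 3 activator and assembly genes were higher and 1 lower.

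Of 42 pathway genes outside the name rule, in 4 lists, 25 were listed, beside 50.2% of the genes tested. Of these 25, 16 were higher and 9 lower, where 50.8% of all listed genes were higher. All 4 ubiquitin genes were higher. The polyubiquitin gene UBB had a fold of 4.11 (3.37 to 5.00) by the authors' deposited table. RPS27A, which encodes ubiquitin fused to a ribosomal protein, was 2.75-fold higher in the authors' deposited table. Of 10 proteasome partners and assembly factors, 7 were listed, 5 as higher and 2 as lower, in the authors' deposited table. SEM1, the smallest lid subunit, was 3.52-fold and POMP, the maturation factor of the core, 2.53-fold higher in the authors' deposited table. AKIRIN2, which brings proteasomes into the nucleus, and the ubiquitin receptor ADRM1 were 1.99-fold and 1.84-fold higher, and TXNL1, a thioredoxin-like protein bound to the regulatory particle, was 1.72-fold higher in the authors' deposited table. ECPAS, a proteasome scaffold, and UBE3C, a proteasome-bound ligase, were 2.22-fold and 2.33-fold lower in the authors' deposited table.

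Of 13 genes of substrate delivery, unfolding and NRF1 processing, 8 were listed, 3 as higher and 5 as lower, by the authors' deposited table. Over all genes, 50.2% of those tested were listed and 50.8% of those listed were higher, so the count is no result about the list. ZFAND2A, which encodes a stress-induced proteasome-associated protein, was 18.8-fold higher (14.2 to 24.9, adjusted p = 1.8e-89 by DESeq2), at 5206 normalized counts in shikonin and 277 in control by the authors' deposited table. NFE2L1 itself was 1.95-fold lower (1.60 to 2.37, adjusted p = 1.33e-10 by DESeq2), at 4897 normalized counts in shikonin and 9534 in control by the authors' deposited table. DDI2, the protease that cleaves NRF1 into its active form, had a 4.46-fold lower level (3.45 to 5.78) by the authors' deposited table, and NGLY1, which removes its glycans, was not listed. These values are RNA levels and do not measure NRF1 protein or its processing. UFD1 was 2.14-fold higher in the authors' deposited table. NPLOC4, which works with UFD1 on the unfoldase VCP, was 1.55-fold lower, as were the ubiquilin genes UBQLN2 and UBQLN4, by 2.28-fold and 1.61-fold, in the authors' deposited table. Mature lengths of the lower genes in these lists were 3576 nt or more, and TXNL1 (6894 nt) was higher at a like length. Of 15 E1 and other conjugating genes, 4 were higher and 2 lower in the authors' deposited table, among them CDC34, an E2 of cullin ligases, which was 1.63-fold higher.

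**Figure D4:**
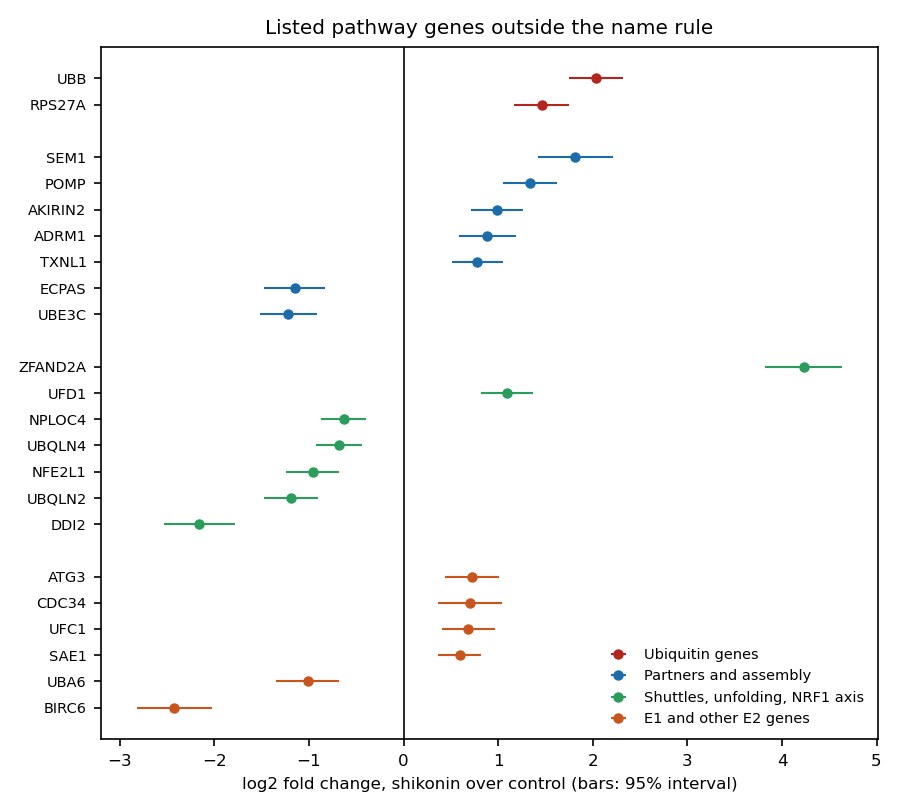
Log2 fold change (shikonin over control, horizontal axis) with 95% intervals for 22 of the 25 listed pathway genes that the name rule does not take, in 4 lists running down the page. The ubiquitin genes RPS27A and UBB lie at 1.46 and 2.04, ZFAND2A lies at 4.23, and DDI2 and BIRC6 lie below -2.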

How the data were processed

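RNA-seq libraries of MDA-MB-231 cells, 3 shikonin and 3 control, were compared by the authors. Tools named in the submitters' processing notes are HISAT2 2.0.5, fastp and DESeq2, with build hg38. The sources used here do not give the read counter, annotation or strandedness. The deposited mean normalized count is a signal in DESeq2's scaled reads, averaged by the authors over the libraries. The authors' log2 fold change, standard error, test score, p-value and adjusted p-value are used as deposited.

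From these, implied group means were solved assuming equal weight of 3 and 3 libraries, and 95% intervals were made from the listed standard error under a normal distribution. How many genes the authors tested was worked out from p, adjusted p and rank, a step tested on simulated data. GENCODE 29 gave positions and lengths; mature length is that of the transcript with the longest coding sequence, with the principal transcript as alternative. Python 3.11.15 and pandas 2.3.3 were used. Depth per library is unknown.

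Members, lists and tests were chosen with earlier results of these data known. Every member was placed in a role group. Full values are given for the 4 largest absolute folds in core, regulatory and E2 genes, for members of the minority direction and for the highest mean of each class; other members get their fold. No test beyond the authors' was run, since values per sample are not held. Some genes of these lists are counted but not named or drawn here, and 1 E2 gene is not reported here.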

Additional observations from a re-analysis of the deposited data

How the results depend on the processing

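No paired analysis was possible because the table holds 1 comparison and no values per sample, and for the same reason no replicate could be left out. All alternatives act on the authors' listed values, so unlisted genes could not enter any count. Core genes higher in shikonin stayed at 12 to 15 of 15 under the alternatives run, except for 8 when the median of the listed genes was set to 0, which lowers each log2 fold change by 0.60. Regulatory genes higher numbered 14 with the authors' values, 2 at 2-fold or more, 3 with the interval wholly beyond 1.5-fold, 2 with equal implied totals and 1 with the median at 0. E2 genes higher numbered 12, and 5 under each of these 4 settings. E2 genes lower numbered 5, 2 at 2-fold or more and 3 with the interval beyond 1.5-fold. Of the 52 members, 28 were past 1.5-fold with equal implied totals and 21 with the median at 0. UBE2D3, at the listing threshold, came to a log2 value of -0.0141 with the median at 0, a sign fixed by the size of the shift and no measure of stability. These counts fall because the settings raise the threshold or subtract a constant. An adjusted p below 0.001, a mean of at least 100 normalized counts and the removal of the pseudogene each moved the core, regulatory and E2 counts by at most 1. Without depth or values per library, low levels such as those of UBE2Q2L and PSMB9 cannot be judged further.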

Other observations

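In GENCODE 29, 22 of the 52 members share exonic bases with another gene, 19 of them with a gene on the opposite strand, and 9 with a gene that is itself listed. Pseudogenes named after a member exist for 15. PSMC1 overlaps 4671 exonic bases of NRDE2 on the opposite strand, which was lower (log2 -0.90 by the authors' deposited table). PSMG2 overlaps SPIRE1 (log2 -1.35 by the authors' deposited table) by 92 bases. PSMD9 overlaps WDR66 on the same strand by 436 bases, and that gene was higher (log2 1.58 by the authors' deposited table). PSMB10 shares 644 bases with AC040162.1 on the same strand, which was not listed. Because the sources used here do not say whether the libraries were stranded, the share of reads counted for either gene of a pair was not tested.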
